A study of Mus musculus with 9 samples.

Results

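Pou4f3 encodes a transcription factor without which the sensory hair cells of the cochlea do not mature and survive. The 10 genes described here are its neighbours on mouse chromosome 18. They are Gnpda1, Cdc23, Epb41l4a, Nrep, Camk4, Gypc, Bin1, Pik3c3, Galnt1 and Ino80c, all protein-coding, and all start within 20 Mb of the start of Pou4f3. They were taken as a named set of 10 of the 51912 genes in the wild-type files. Each is also among the 1137 genes that the files of the homozygous mutants list, and none was counted as a hair cell gene when the set was drawn up. All 10 were measured in every library, and all 10 passed the filter on low values.

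The data are RNA-seq of cochlea from mice at postnatal day 3, in 3 groups of 3 libraries. The groups follow the sample titles: WT stands for Pou4f3(+/+), HET for Pou4f3(Δ/+) and HOM for Pou4f3(Δ/Δ). The genotype characteristic of each sample names another genotype than its title, so every direction below rests on the titles. The sources used here give neither what the Δ allele removes, nor the strain it was made in, nor that of the mice. Nor is it said whether replicates were separate animals, so p-values measure only the spread between these libraries. Pou4f3 itself was at 25.02, 24.49 and 26.97 FPKM in the WT libraries and at 24.21, 21.74 and 25.56 FPKM in HET. In HOM it was at 5.92, 1.36 and 9.39 FPKM. FPKM counts sequenced fragments, scaled for gene length and library size. The HOM libraries were low and apart from the rest, while HET and WT overlapped, so this gene does not check the HET labels against the WT labels.

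Genes that lie near each other on a chromosome are mostly inherited together. When a mutant allele is bred into another strain, the DNA around it comes along, and any variant in that DNA that alters a neighbouring gene then follows the genotype. A variant that acts on the gene copy beside it leaves a heterozygote about midway between the homozygotes. A gene that answers to the amount of a transcription factor may take any place between them. This is textbook background and not a result. In these groups the Pou4f3 genotype and the DNA around the gene go together, so their parts in any difference below cannot be told apart.

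How the genes were chosen limits what can be tested. The listed genes are ordered by HOM level relative to WT, with a Spearman rho of 1 across genes between the order and that ratio. Members were selected on that list, so they were chosen by the measured gap between HOM and WT. For all 1137 listed genes (100%) the 3 HOM libraries lay wholly above or wholly below the 3 WT libraries. That difference is therefore a description here, with no test. The HET libraries were tested against WT with limma on log2(FPKM + 1) across 15391 expressed genes, meaning that 3 or more of the 6 libraries reached 1 FPKM. The WT libraries took part in the listing, so that comparison is only partly independent of it. In bulk tissue, fewer cells of a type and less RNA per cell cannot be told apart.

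The libraries held about 14300000 to 17400000 fragments, as recovered from the steps in low FPKM values. The members had from 129 fragments (Camk4 in a HOM library) to 39666 (Nrep in a HOM library) behind a value, so counting error is largest for Camk4. On the first principal component of the WT and HET libraries (58.1% of the variance), HET 1 and WT 3 fell together, away from the remaining 4. Hair cell markers were present in all WT and HET libraries, with a summed level of 10 markers of 137 to 171 FPKM in WT and 143 to 159 in HET. Muscle markers (1.63 to 2.61 FPKM over 6 genes), brain markers (1.33 to 2.48 over 4) and T cell markers (3.13 to 5.53 over 6) were near 0 in these libraries. Markers of Schwann and satellite glia summed to 326 to 403 FPKM in WT and to 429, 265 and 233 in HET 1, 2 and 3. Cycling cell markers summed to 14.3 to 19.9 FPKM in WT and to 20.7, 13.1 and 11.4 in HET. Both sums were highest within their group in HET 1 and WT 3. Their part in the HET values of the members was not tested.

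In HOM against WT, 7 of the 10 genes were higher and 3 were lower. Gnpda1 stood out in size: its mean HOM level was 217% of the WT mean, and among the 343 listed genes that were higher in HOM it had the largest difference on the log2(FPKM + 1) scale (1.01). The other 9 differed much less, from 69.4% of WT for Camk4 to 124% for Bin1. The median size of the difference over the 10 was 0.23, against 0.30 over all 1137 listed genes. Scaling matters for these small differences. Wherever HOM takes part, the scaling factors come from the listed genes alone, of which 794 were lower in HOM. Scaling on that selected set raises HOM values, so it is not a genome-wide normalization. The median over all listed genes was -0.23 and became -0.049 under median-ratio scaling, and the median of the 10 was 0.19 and became 0.40. It lay 0.43 and 0.45 above the median of the listed genes without and with that scaling. The listed genes include hair cell genes, which were left out of the 10, so these medians compare unlike sets. Cdc23 went from -0.17 to 0.037 with median-ratio and to 0.073 with upper-quartile scaling, so its direction depends on the scaling. The other 9 kept their direction under both, and the 7 that were higher grew. Gypc shrank from -0.28 to -0.077 with median-ratio and -0.041 with upper-quartile scaling, and Camk4 from -0.41 to -0.24 and -0.21. Cell type markers moved between the same groups: 9 of 10 hair cell markers were listed lower in HOM (differences from -4.36 to -0.79), and 3 of 8 supporting cell markers were listed higher (0.27 to 0.45), among them Epyc at 724 ± 55.5 FPKM in WT and 989 ± 53.6 in HOM (SD, n = 3). Their part in the members' HOM values was not tested.

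**Figure D1:**
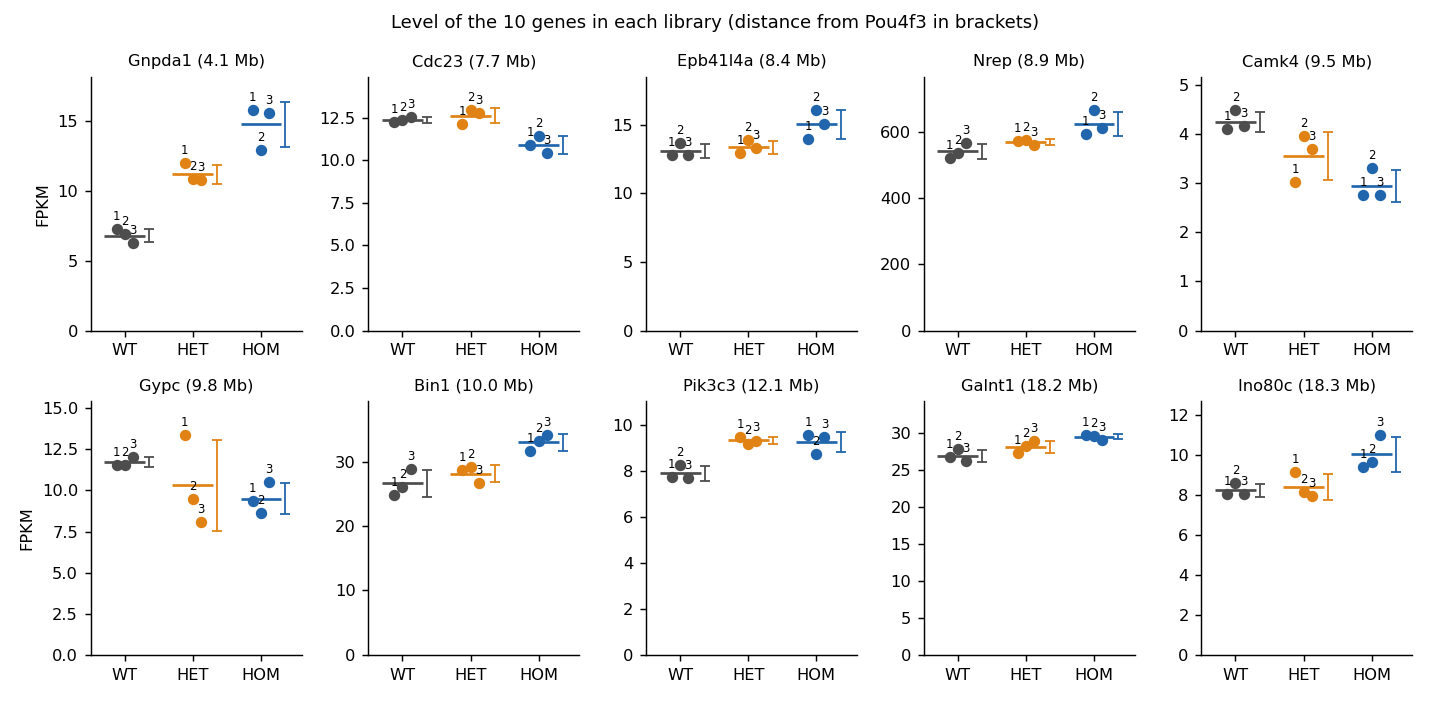
FPKM of each of the 10 genes in the 9 libraries, with the replicate number above each point, the group mean as a line and ± 1 SD (n = 3) as a bracket. Gnpda1 is the panel with 3 separate steps, WT at 6.27 to 7.25, HET at 10.76 to 11.98 and HOM at 12.92 to 15.78 FPKM, while in Pik3c3 the HET libraries sit among the HOM libraries.

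Members of metabolism and membrane traffic come first. Gnpda1 encodes glucosamine-6-phosphate deaminase, which turns an amino sugar phosphate into fructose 6-phosphate and so feeds amino sugars back into glycolysis. It lies 4.06 Mb from Pou4f3, on the - strand of chromosome 18 from 38327535 to 38339003 in GRCm38. Its level was 7.25, 6.89 and 6.27 FPKM in WT, 11.98, 10.83 and 10.76 in HET, and 15.78, 12.92 and 15.61 in HOM. No value of one group reached into the next, and the order was WT, HET, HOM. HET was at 164% of WT, a difference of 0.64 (SE 0.09, limma adjusted p = 0.9998), so Gnpda1 was not called. Its unadjusted limma p of 0.000186 ranked second (rank 2) of 15391 genes. The exact permutation p was 0.1, the smallest that 3 against 3 libraries allow, and it was the same for Pik3c3 and Camk4. Over 14 other settings the limma rank of Gnpda1 lay between 2 and 23, the difference between 0.55 and 0.71 and the adjusted p between 0.170 and 0.99997. The rank of 23 came without HET 1 and WT 3, when many more genes had a small p, and there the difference was 0.55.

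Pik3c3, also called Vps34, encodes the lipid kinase that makes phosphatidylinositol 3-phosphate for endosomes and autophagy. The gene lies 12.1 Mb from Pou4f3, from 30272747 to 30348126 on the + strand. Its level was 7.75, 8.27 and 7.67 FPKM in WT, 9.49, 9.19 and 9.32 in HET, and 9.58, 8.75 and 9.46 in HOM. All HET libraries were above all WT libraries and overlapped with HOM. HOM differed from HET by -0.011, but by 0.14 under median-ratio scaling and by 0.21 under upper-quartile scaling, where limma called it (adjusted p = 0.0206). The difference of HET from WT was 0.22 (SE 0.07, limma adjusted p = 0.9998).

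Bin1 encodes amphiphysin 2, a protein that bends membranes in endocytosis and in the tubules of muscle. It lies 10.02 Mb from Pou4f3, from 32377230 to 32435737 on the + strand. Its level was 24.88, 26.11 and 28.91 FPKM in WT, 28.66, 29.09 and 26.69 in HET, and 31.57, 33.19 and 34.20 in HOM. HET overlapped with WT, and HOM lay above both. Galnt1 encodes an enzyme that adds the first sugar in mucin-type O-glycosylation, and lies 18.2 Mb away, from 24205344 to 24286818 on the + strand. It was at 26.75, 27.89 and 26.23 FPKM in WT, 27.35, 28.35 and 28.95 in HET, and 29.85, 29.70 and 29.16 in HOM. All HOM libraries were highest, but the whole range was narrow, with HOM at 109.7% of WT.

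Signalling and neuronal members followed no common direction. Camk4 encodes a kinase that calcium and calmodulin switch on and that acts on gene regulators in neurons and T cells. It lies 9.46 Mb from Pou4f3, from 32934931 to 33191228 on the + strand. Its level was 4.11, 4.49 and 4.16 FPKM in WT, 3.02, 3.97 and 3.70 in HET, and 2.76, 3.32 and 2.77 in HOM. All HET libraries were below all WT libraries, and HET 1 lay among the HOM values. HET differed from WT by -0.21 (SE 0.11, limma adjusted p = 0.9998), and by -0.13 without HET 1 and WT 3. Nrep encodes a small protein, also called P311, found in regenerating neurons and in smooth muscle. It lies 8.93 Mb away, from 33437019 to 33464029 on the - strand. It had the highest level of the 10, at 521.53, 535.75 and 565.43 FPKM in WT, 571.50, 576.14 and 559.02 in HET, and 594.57, 665.19 and 611.12 in HOM. HOM lay above HET, and HET overlapped with WT.

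Epb41l4a and Gypc are tied to the membrane skeleton. Epb41l4a encodes a FERM domain protein of the band 4.1 superfamily and lies 8.39 Mb away, from 33796327 to 34006966 on the - strand. It was at 12.79, 13.70 and 12.78 FPKM in WT, 12.94, 13.87 and 13.27 in HET, and 13.97, 16.06 and 15.07 in HOM. HET was at the WT level, and only HOM stood higher. Gypc encodes glycophorin C, which anchors the skeleton of red cells to their membrane, and lies 9.83 Mb away, from 32528322 to 32560034 on the - strand. It was at 11.54, 11.55 and 12.05 FPKM in WT, 13.40, 9.47 and 8.08 in HET, and 9.33, 8.64 and 10.54 in HOM. Its HET libraries spread more widely than both other groups together, with HET 1 above every other library and HET 3 below. A globin gene of red cells, Hbb-bs, named after its values were seen, was at 66.09, 72.85 and 79.79 FPKM in WT, 75.77, 34.79 and 55.28 in HET, and 34.76, 25.11 and 35.23 in HOM. Over 9 matched red cell markers the summed level was 110 to 171 FPKM in WT and 63.8 to 146 in HET, and none of the 9 was at 0 in all of those libraries. The part of red cell RNA in the Gypc values was not tested.

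The last pair works in the nucleus. Cdc23 encodes a subunit of the anaphase-promoting complex, the ubiquitin ligase that lets cells leave mitosis. It lies 7.74 Mb away, from 34630951 to 34651735 on the - strand. It was at 12.23, 12.35 and 12.55 FPKM in WT, 12.10, 12.94 and 12.80 in HET, and 10.91, 11.45 and 10.40 in HOM. HET and WT overlapped, and HOM lay below both. Both scalings turned the direction against WT. Against HET only upper-quartile scaling turned it (0.034, and -0.036 with median-ratio scaling). Kif20a, on the opposite strand and named for its overlap alone, shares 1271 bp (13.4%) of the exons of Cdc23, and whether counting used strand is not given, so fragments from there cannot be assigned to one of them. Ino80c encodes a subunit of the INO80 chromatin remodeller and lies 18.3 Mb away, from 24104757 to 24121953 on the - strand. It was at 8.04, 8.57 and 8.02 FPKM in WT, 9.12, 8.13 and 7.91 in HET, and 9.39, 9.63 and 11 in HOM. HET 2 and HET 3 were near the WT values, and HET 1 lay between WT and HOM.

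None of the 10 (0) passed limma's threshold of an adjusted p of 0.05 in HET against WT, nor did any of the 15391 genes (0%). Of the 10, 2 had an unadjusted limma p under 0.05, Gnpda1 and Pik3c3, against 266 of 15391 genes (1.73%). The 3 HET libraries lay wholly apart from the 3 WT libraries in 3 of the 10, with Gnpda1 and Pik3c3 above and Camk4 below. The same held for 5.94% of expressed genes, 2.82% above and 3.12% below. Among all listed genes it held for 20.8%, which is the nearer background since listing used the same WT libraries. Single libraries move the count of 3: it was 5 without WT 2 and without WT 3, when 10.1% and 15.7% of all genes tested lay apart. It was 6 without HET 1, when 39.5% did. Without HET 1 and WT 3 it was 8, when 50.7% did.

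HOM was tested against HET over the 1090 listed genes that passed the filter in those libraries, with limma. Bin1 (0.22, SE 0.05, adjusted p = 0.0194) and Gnpda1 (0.37, SE 0.09, adjusted p = 0.0198) rose, and Cdc23 fell by 0.19 (SE 0.06, adjusted p = 0.0336). That makes 3 of 10, against 44.5% of the listed genes (8.17% higher and 36.3% lower). The other 7 had an adjusted p from 0.0603 (Ino80c) to 0.870 (Pik3c3). Since the genes were listed for their HOM values, these calls are not independent evidence. All 3 calls were lost without HET 2 and without HET 3, at adjusted p between 0.0531 and 0.105, and further single HOM libraries also ended each of them. Scaling, with factors from the listed genes alone, moved the calls the other way. With median-ratio scaling Cdc23 was not called (-0.036, limma adjusted p = 0.632). Epb41l4a (adjusted p = 0.0113), Nrep (0.0402), Galnt1 (0.00696) and Ino80c (0.0128) were called, all higher in HOM. Over the listed genes that scaling gave 257 higher and 259 lower calls, in place of 89 and 396. HOM and HET lay apart in 7 of the 10, against 61.7% of the listed genes.

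The place of HET between the other groups was expressed as a percentage, with 0% at the WT mean and 100% at the HOM mean. The WT and HOM means also chose the genes, so the places are a description. Gnpda1 was at 55.1% ± 8.60 (SD over the HET libraries, n = 3), with single libraries at 65.0%, 50.5% and 49.7%. It had the smallest SD of the 10, but the scale divides by the gap between the WT and HOM means. A wide gap therefore narrows the SD, and the spread within WT and HOM is left out. In FPKM the HET libraries of Gnpda1 were at 11.19 ± 0.685, against 9.33 ± 0.150 for Pik3c3 and 10.3 ± 2.76 for Gypc. Camk4 (52.9% ± 37.6) and Galnt1 (48.2% ± 30.9) had mean places like that of Gnpda1. Their libraries ran from 21.7% to 94.6% and from 15.1% to 76.3%. Nrep was at 33.8% ± 10.7, with all libraries between 21.9% and 42.6%. Bin1 (23.8% ± 20.1), Epb41l4a (13.9% ± 24.3) and Ino80c (9.83% ± 35.9) lay nearer WT. Pik3c3 was at the HOM end (105% ± 11.01), but at 55.3% under median-ratio scaling. Cdc23 lay on the far side of WT (-16.2% ± 30.9), a place that became 122% under that scaling. The same scaling put Gnpda1 at 44.1%, Camk4 at 77.4%, Galnt1 at 23.9% and Nrep at 20.9%, so the like means of the first 3 were not kept. For Gypc (63.2% ± 125) the spread was too wide to give a place, and scaling put it at 195%.

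**Figure D2:**
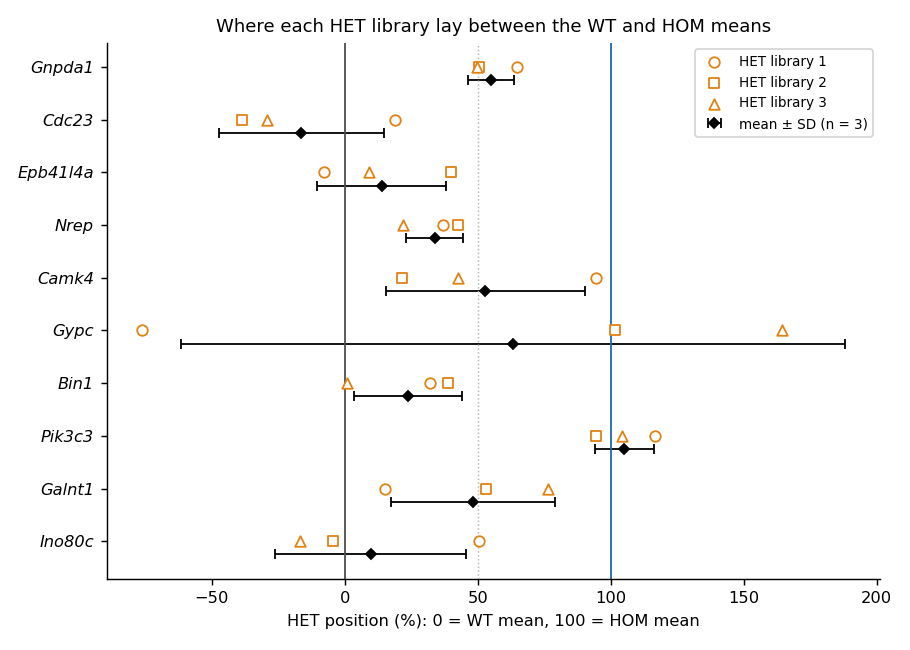
Position of each HET library on a scale where 0% is the WT mean and 100% the HOM mean of the same gene. Open symbols are the 3 HET libraries, and diamonds with bars are their mean ± SD. Bars are in units of each gene's gap between the WT and HOM means, so a wide gap narrows them. Gnpda1 and Nrep have narrow bars inside the scale, Pik3c3 lies at the HOM mean on the unscaled values, and Gypc spans from -76.3% to 164%.

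The median place of the 10 genes was 41.0%, against 16.9% over all 1137 listed genes, hair cell genes included. Direction matters for this contrast. Listed genes that were higher in HOM had a median of 30.3% (343 genes) and those that were lower 11.6% (794 genes), and 7 of the 10 were higher. The 7 had a median of 33.8%, close to that of all higher listed genes, and the 3 that were lower were at 52.9%, -16.2% and 63.2%. For 5 of the 10 (50%) every HET library lay between the means, against 21.7% of all listed genes. Among the 24 other listed neighbours within 20 Mb, Pou4f3 left out, this held for 9 (37.5%). It held for 6 of the 12 that were higher in HOM (50%) and 3 of the 12 that were lower (25%), so it was not particular to the 10. A row of 3 separate steps, with HET apart from both other groups in the listed direction, was seen in 1 of the 10, Gnpda1, against 6.6% of listed genes.

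All 10 members start on the low-coordinate side of Pou4f3, 4 on the + strand and 6 on the - strand. The set was named without any of the 14 listed genes on the other side, so its side is not a result. Position did not sort the members by direction. From Bin1 to Epb41l4a, starts within 1.63 Mb of each other, Bin1, Nrep and Epb41l4a were higher in HOM, and Gypc and Camk4 between them were lower. Ino80c and Galnt1, whose starts are 83.4 kb apart, were both higher.

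**Figure D3:**
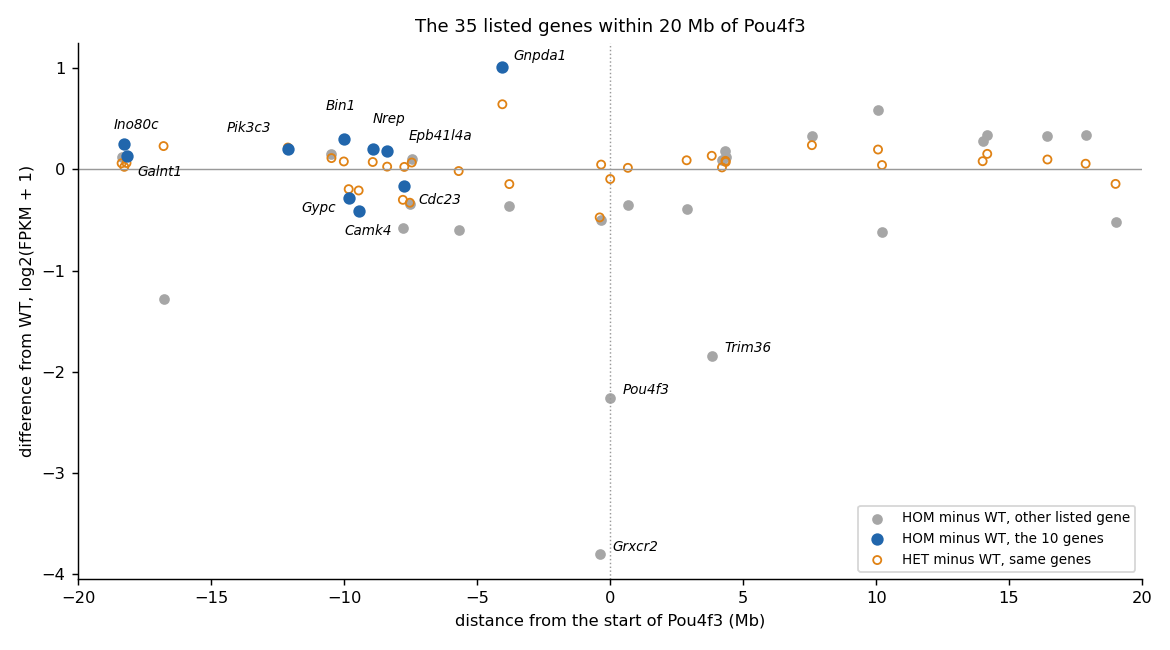
Difference from WT on the log2(FPKM + 1) scale against the distance of each listed gene's start from that of Pou4f3, for the 35 listed genes within 20 Mb. Filled points are HOM minus WT and open circles HET minus WT. The 10 genes described here are all left of Pou4f3 and, except Gnpda1 at 1.01, stay between -0.41 and 0.30.

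The 10 were part of a longer row of listed genes. Within 20 Mb of Pou4f3, 35 genes were listed, and 25 of them are not among the 10: Pou4f3 itself, 10 on the members' side and 14 on the other. On the log2(FPKM + 1) scale, the largest differences among those 24 were in Grxcr2 and Trim36. Grxcr2, a glutaredoxin-like protein of the hair bundle whose gene lies 0.395 Mb from Pou4f3, was at 48.2 ± 2.27 FPKM in WT (SD, n = 3), 34.5 ± 3.61 in HET and 2.90 ± 2.0 in HOM. All 3 groups lay apart, and HET was at 30.2% of the way. Trim36, a ubiquitin ligase gene 3.82 Mb away, was at 13.97 ± 0.148 FPKM in WT, 15.4 ± 0.844 in HET and 3.25 ± 0.918 in HOM. Its HET libraries were all above WT while HOM was far below, at -13.8% on the scale.

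Further listed genes near Pou4f3 took places of both kinds. Sh3rf2 (-8.66%), Ppp2r2b, a phosphatase subunit (-5.52%), Kcnn2, a calcium-activated potassium channel (-26.9%), and E230025N22Rik (2.90%) were lower in HOM with HET at the WT level. Spry4, an inhibitor of growth factor signalling, lay 3.79 Mb away, close to Gnpda1 but lower in HOM, at 6.04 ± 0.468 FPKM in WT, 5.36 ± 0.312 in HET and 4.50 ± 0.562 in HOM. Some differed little and had HET between: Cdo1, cysteine dioxygenase, was at 63.4 ± 1.60, 67.3 ± 2.34 and 72.2 ± 1.59 FPKM in WT, HET and HOM. Its neighbour Atg12, an autophagy protein, was at 29.9 ± 0.776, 31.5 ± 0.757 and 32.7 ± 0.681 FPKM. Tmed7 (22.3% ± 104) and Etf1, a translation release factor (70.2% ± 93.7), were also higher in HOM. Their HET libraries spread too widely to give a place. The immediate-early gene Egr1 was at 7.20 ± 0.157 FPKM in WT, 5.57 ± 0.911 in HET and 5.45 ± 0.0643 in HOM. Its mean HET place was 93.5% ± 52.1, with single libraries from 33.8% to 130%.

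Without Pou4f3, the 24 listed neighbours outside the set had a median place of 29.6%, 43.4% for the 12 that were higher in HOM and -1.31% for the 12 that were lower. On other chromosomes the medians were 15.9% in all, 29.6% for the higher and 11.5% for the lower genes. Further along chromosome 18, beyond 20 Mb, the median over 17 listed genes was 45.7% (61.1% for the higher and 19.7% for the lower), above that of the 24. The 3 steps were seen in 5 of the 24: Grxcr2, Cdo1, 4933408B17Rik, Srfbp1 and Aldh7a1, of which the last 3 were picked out after their values were seen. Beyond 20 Mb on chromosome 18, 3 of 17 (17.6%) had them, and on other chromosomes 66 of 1085 listed genes (6.08%).

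The HET libraries can also be read over the whole neighbourhood. The HET and WT libraries lay apart for 13 of the 35 listed genes within 20 Mb (37.1%), for 5 of the 16 further along chromosome 18 (31.2%) and for 213 of 1080 listed genes on other chromosomes (19.7%). Among unlisted genes within 20 Mb it was 6 of 196 (3.06%), against 668 of 13905 on other chromosomes (4.80%). Without HET 1 and WT 3 the shares within 20 Mb and on other chromosomes were 71.4% and 55.9% for listed genes and 47.9% and 50.2% for unlisted ones. The unlisted neighbour with the smallest p was Fgf1, a fibroblast growth factor gene 3.47 Mb away on the side of Gnpda1, picked out after its values were seen. It was at 0.73, 0.83 and 0.60 FPKM in WT and 1.58, 2.01 and 1.80 in HET, with no overlap. Only its HET libraries reached 1 FPKM, so it passed the filter through the group where it was higher, which limits what its rank shows. The difference was 0.70 (SE 0.13, limma adjusted p = 0.9998, rank 7 of 15391). As an unlisted gene, Fgf1 had no HOM value here.

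The neighbourhood was rich in listed genes. Of the expressed genes within 20 Mb of Pou4f3, 35 of 231 (15.2%) were listed, against 16 of 175 (9.14%) further along the chromosome and 1080 of 14985 (7.21%) on other chromosomes. Both the 35 and the 231 count Pou4f3 itself and the hair bundle gene Grxcr2. The share over all expressed genes was 7.35% (2.23% higher and 5.12% lower in HOM). The contrast was widest for genes that were higher in HOM, at 8.23% within 20 Mb and 2.12% on other chromosomes, while the lower genes were at 6.93% and 5.09%. With 51 of 406 genes (12.6%), chromosome 18 had the highest share of 20 chromosomes, followed by chromosome 5 (9.85%). For genes higher in HOM it was first, with 6.40% against 3.30% on chromosome 10, and for genes lower in HOM it was rank 5. Of the 35, 19 (54.3%) were higher in HOM, against 30.2% of all listed genes. Under median-ratio scaling these shares were 57.1% and 44.4%, and under upper-quartile scaling 57.1% and 48.0%, so the gap narrowed with scaling. The other shares by direction in this paragraph are on unscaled values, where 343 listed genes were higher in HOM. Scaling made that 505 and 546. These shares rest on the listing, so they carry no test.

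**Figure D4:**
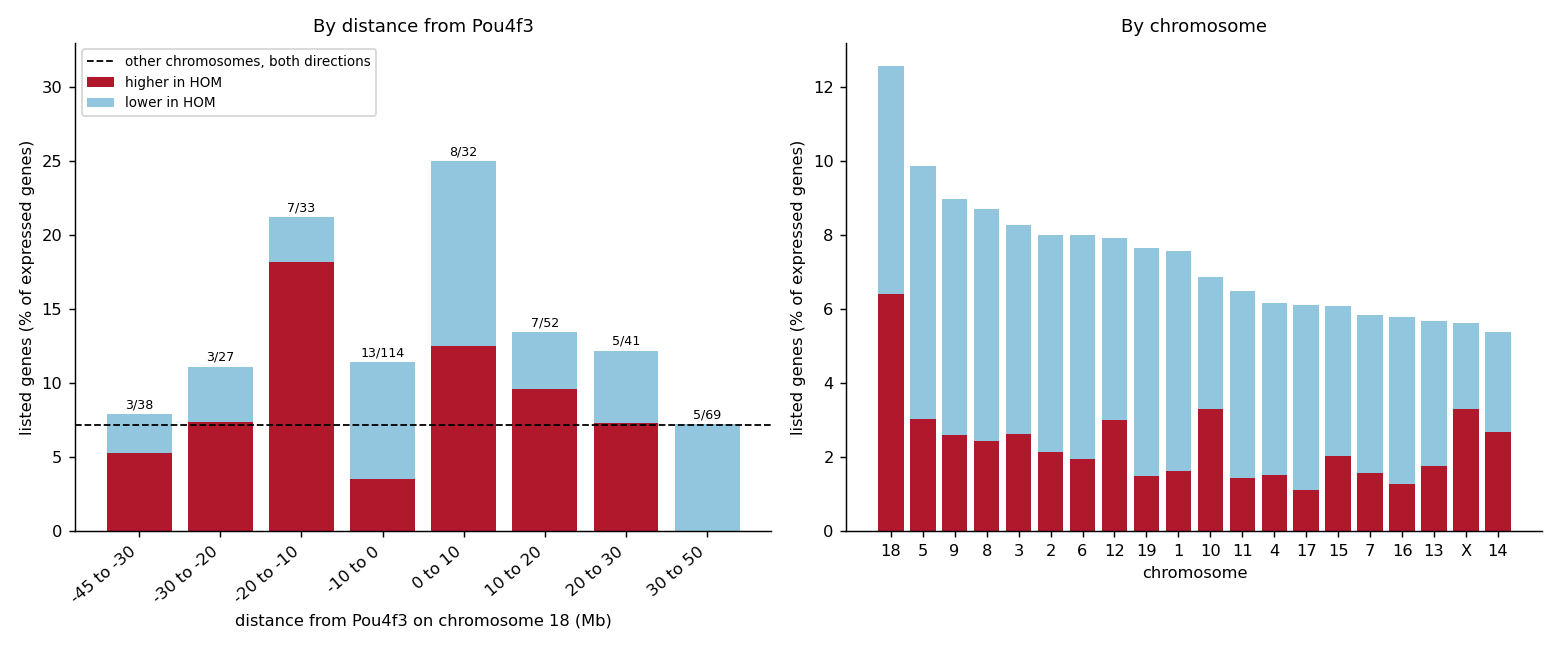
Share of expressed genes that the HOM files list, by distance from Pou4f3 along chromosome 18 (left, with counts over the bars and the share on other chromosomes as a dashed line) and by chromosome (right). The fullest bins are 0 to 10 Mb (8 of 32 genes, Pou4f3 itself included) and -20 to -10 Mb (7 of 33), and chromosome 18 has the highest bar.

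Listed genes continued past the 20 Mb limit. Just inside it, Ino80c was the farthest member at 18.3 Mb, next to the listed gene Zfp24 at 18.4 Mb (13.1 FPKM in WT, 13.7 in HET and 14.3 in HOM), with Gm25301 at 19.0 Mb on the other side (7.77, 7.09 and 5.09 FPKM); both are named for their place at the limit. Just outside, Klhl14 lay at 20.7 Mb on the members' side, with 13.06 FPKM in WT, 12.2 in HET and 11.1 in HOM (HET at 45.7% ± 61.5). St8sia3, a sialyltransferase gene 21.9 Mb away on the other side, was at 4.40, 4.27 and 0.833 FPKM.

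Enzymes and partners that work with the members were not called in HET, and nor was any of the 15391 expressed genes. Of 102 genes in 9 lists, for every member except Nrep, 94 were tested, and 0 passed limma's threshold. An unadjusted limma p under 0.05 was also seen in 0 of them, against 1.73% of expressed genes. The HET and WT libraries lay apart in 5 of the 94 (5.32%, against 5.94% of expressed genes). Galnt14, Crem and Anapc7 were above WT, and Gnpda2 and Epb41l3 below, with differences on the log2(FPKM + 1) scale from -0.092 (Epb41l3) to 0.18 (Crem). Crem is itself on chromosome 18, 1 of 2 partners there, both from the list of Camk4. Gnpda2, the second glucosamine-6-phosphate deaminase, was at 6.15, 6.07 and 6.33 FPKM in WT and 5.91, 5.74 and 5.89 in HET. The difference of -0.069 (SE 0.070, limma adjusted p = 0.9998) was no larger than its error, so no direction is read from it. The median change over the 94 was 0.0097.

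Among the partners, 5 were listed in HOM (5.32%, against 7.35% of expressed genes), all lower. Camk2b, a kinase subunit from the list of Camk4, was at 4.06 ± 0.225 FPKM in WT (SD, n = 3) and 1.57 ± 0.644 in HOM. Its HET libraries lay near WT (10.6%), whereas Camk4 itself had a mean place of 52.9%. Hk1 (-0.11), Dnm2 (-0.17) and Galnt11 (-0.10) differed less. No partner was listed (0) from the class III PI3K, FERM band 4.1, anaphase-promoting, red cell membrane and INO80 lists.

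Genes on other chromosomes that resembled Gnpda1 most, by Pearson's r over the 9 libraries, were Ddx50 (0.962), Tm9sf2 (0.938), Ctso (0.935), Nipal2 (0.932) and Pex3 (0.919). Their steps were smaller: Ddx50 was at 14.6 ± 0.150 FPKM in WT, 15.9 ± 0.170 in HET and 16.2 ± 0.236 in HOM. Those most like Camk4, the member furthest below WT in HOM, were Ube2o (0.964), Pitpnm3 (0.961), Gm25908 (0.944), Sgsm2 (0.939) and Dzip1l (0.936). All are listed genes, so the WT and HOM levels alone make r high, and r is given as a description.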

How the data were processed

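RNA was measured by RNA-seq in 9 libraries. The deposited values are FPKM per Ensembl gene, computed by the authors, with 51912 genes in each WT and HET file and 1137 in each HOM file, per the file headers. The submitters' processing notes name DESeq2 and mm8. The sources used here give neither aligner nor counter. Genes were placed by Ensembl ID on GRCm38 (99.5% of the 51912 matched), and distances run between gene starts. Fragments per library were recovered from the steps of low FPKM values, 99.4% to 100% of which were whole within 0.1. Groups were compared with limma 3.58.1 (R 4.3.3) on log2(FPKM + 1) with a mean-variance trend and Benjamini-Hochberg adjustment, after a check on simulated data. Single genes were also compared with 2-sided exact permutation tests. Figures and summaries used Python 3.11.15.

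The members, lists and tests were chosen with earlier results of these data known. Genes named are the 10 members, Pou4f3, up to 12 further listed genes nearest to it, 1 listed gene past the 20 Mb limit on each side, the 5 genes most like Gnpda1 and Camk4, and partners that were listed or lay apart. Others are marked where they are named. Same-numbered libraries were not treated as pairs. The values of 1 listed partner gene are not reported here.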

Additional observations from a re-analysis of the deposited data

How the results depend on the processing

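No member was called in HET against WT under any of the 14 alternatives run for it (another pseudocount, filters, scalings, no variance trend, replicate block, left-out libraries), and leaving out 1 library called 0 to 1 of all genes. The count of members with HET apart from WT ranged from 3 to 6 with 1 library left out, when 9.47% to 39.5% of all genes lay apart, and was 8 without HET 1 and WT 3 (50.7%), an alternative chosen after seeing the data. In HOM against HET, 485 listed genes were called, 304 with the replicate number as a block (29 higher, 275 lower) and 116 to 431 with 1 library left out, 142 of them without HET 2 and 116 without HET 3. The split of 89 higher and 396 lower was 257 and 259 after median-ratio and 329 and 212 after upper-quartile scaling. Both scalings took their factors from the listed genes alone. With the block, Bin1 (adjusted p = 0.0677) and Cdc23 (0.0915) were no longer called by limma. Same-numbered HET and WT libraries correlated at -0.519, 0.286 and -0.471 in their deviations, so the numbers did not pair them.

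The median HET place of 41.0% was 33.99% under median-ratio scaling and 32.2% to 45.8% with 1 library left out. The listed share of 15.2% was 7.04% over all 497 genes in the window, where 2.20% of all genes in the files are listed. Some directions turned, including that of Cdc23 in HOM against HET, which was called, and of Pik3c3, which became called under upper-quartile scaling. Ino80c in HET against WT ranged from -0.030 to 0.062 with 1 library left out and was -0.044 without HET 1 and WT 3, and its place ranged from -10.6% to 23.1% and was -16.7%. Gypc in HOM against HET was 0.069 with median-ratio and 0.14 with upper-quartile scaling and ranged from -0.23 to 0.10 with 1 library left out. Pik3c3 was 0.14 and 0.21 under these scalings and ranged from -0.033 to 0.026. Cdc23 was 0.034 in HOM against HET under upper-quartile scaling, 0.037 and 0.073 in HOM against WT under both, and its place was 122%. The cause was not tested. Filters, variance trend and block were not run where a value has no such fit. Depth limits Camk4 most, at 129 to 228 fragments a library.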
